A study of Mus musculus with 9 samples.

Results

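The transcripts described here are 6 genes used as markers of the hair follicle and the sebaceous gland, Krt28, Mgst1, Cidea, Krt79, Plet1 and Sox9, measured in basal cells of mouse footpad skin. They are 6 of the 22399 genes in the deposited expression table, found by gene name. Krt28, Mgst1 and Cidea were picked for being higher in aged libraries. That choice also used the libraries that aged was set against, so their values are a description without a test in every comparison. Krt79, Plet1 and Sox9 were not picked on that measure and were tested in every comparison.

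Hair follicles form concentric layers. The outer root sheath is continuous with the epidermis, the inner root sheath moulds the growing hair shaft, and the upper follicle opens at the surface beside the duct of the sebaceous gland, whose cells fill with lipid and burst. Plantar skin of the mouse footpad bears sweat glands and lacks hair follicles and sebaceous glands.

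RNA was sequenced from CD49f positive, CD34 negative cells sorted from trypsinized plantar skin and labelled as basal cells of the interfollicular epidermis. CD49f is the integrin alpha 6 chain of basal cells, and CD34 marks follicle stem cells. All 9 libraries came from wild-type C57BL/6 animals, with 3 libraries in each of 3 groups: aged animals of 24 months, for which no diet is labelled, HFD animals of 5 months on a high-fat diet, and control animals of 5 months on a normal diet. No label ties the libraries of a group to separate animals, so p-values measure the spread between these libraries, which may be technical.

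Values are the FPKM that the authors deposited (fragments scaled to gene length in kilobases and to M fragments in the library), so levels of different genes are compared per length. A difference is one of log2(FPKM + 1) between group means, with the SE of limma, a linear model fitted to the 10367 genes that averaged at least 1 FPKM. A gene was called when its p, adjusted over all of them by Benjamini-Hochberg, was under 0.05. Counts at an unadjusted p under 0.05 carry no share of all tested genes at that level and are a description. Adding 1 shrinks the differences of low genes such as Krt28 and Cidea. All 3 comparisons share libraries in pairs, so they are not independent of each other. Estimated depth was 23.5 to 35.8 M reads per library. The basal cell keratins Krt5 and Krt14 averaged 11662 and 12461 FPKM over the 9 libraries. The highest Cd34 value was 0.0671 FPKM, and the gene had 39 reads in aged, 19 in HFD and 1 in control libraries. Krt10, a keratin of differentiating cells, stood at 3328 to 6493 FPKM.

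All 6 genes averaged at least 1 FPKM over the 9 libraries, but Krt28 and Cidea did so through the aged libraries, with means of 0.727 and 0.803 FPKM over the other 6. By mean over all libraries Krt79 was highest at 60.7 FPKM, followed by Mgst1 at 31.2, Plet1 at 27.6, Sox9 at 9.48, Cidea at 1.51 and Krt28 at 1.37. Over the 9 libraries the ranges of Krt79 and Mgst1, of Mgst1 and Plet1, and of Cidea and Krt28 overlapped, whereas those of Plet1 and Sox9 and of Sox9 and Cidea did not. In aged libraries the mean of Krt79 lay above that of 96.4% of the tested genes and the mean of Krt28 above 13.8%. In control libraries the mean of Krt28 lay above only 0.0289% of them.

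**Figure D1:**
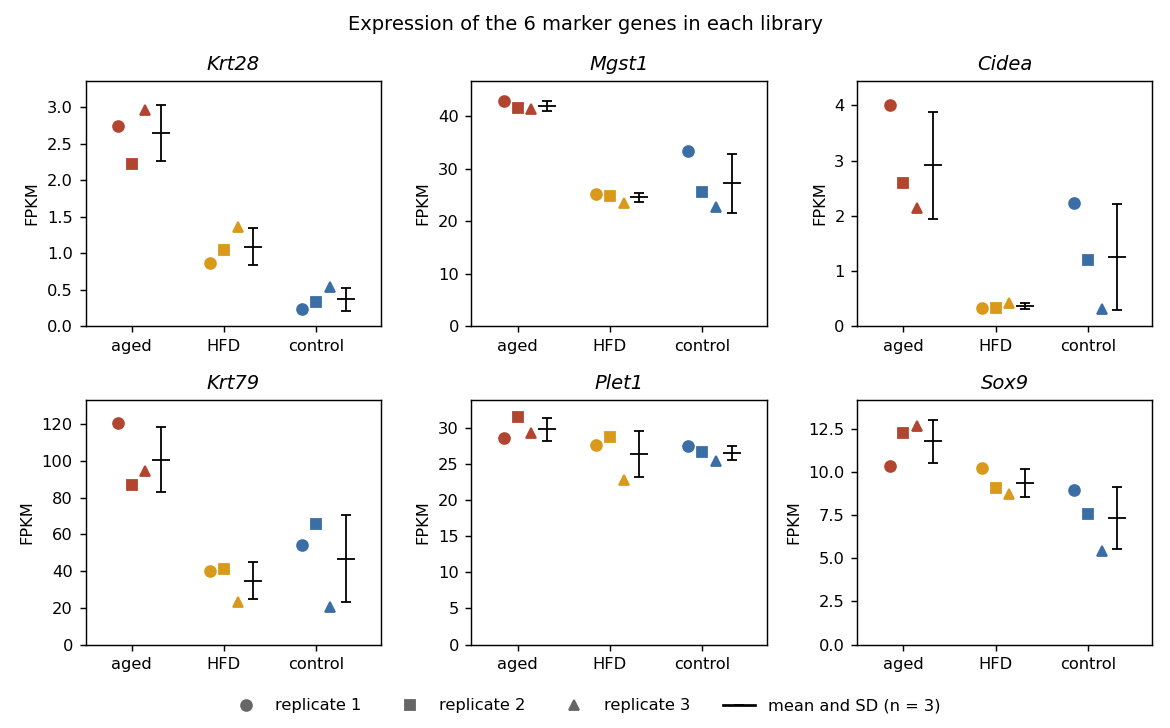
FPKM of the 6 genes in each library, by group, with a panel per gene, each with its own axis from 0. Marker shapes give the replicate number, and the bar gives the mean and SD of 3 libraries. For Krt28 the 3 groups are stacked without overlap, whereas control replicate 3 lies far below the other control libraries for Krt79 and Cidea.

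The 250 bases before the start sites of 4 of the genes are printed because the ratio of the aged to the control mean differed widely among them, at 7.28 for Krt28, 2.15 for Krt79, 1.54 for Mgst1 and 1.12 for Plet1. They come from RefSeq on GRCm38.p6, 5′ to 3′ on the strand of the gene, at chr11:99374904-99375153 (minus) for Krt28, chr15:101940325-101940574 (minus) for Krt79, chr6:138140277-138140526 (plus) for the first of both Mgst1 sites and chr9:50494275-50494524 (plus) for Plet1. Capitals mark matches to 4 motifs searched on both strands. The first was TATAAA, a core promoter element near many start sites. The second was TGANTCA, which the AP-1 factors recognise. The third was AGGTCA, the half-site of nuclear receptors. The last was AGATAA, which erythroid and epithelial zinc finger factors of the Gata family recognise.
Krt28 promoter: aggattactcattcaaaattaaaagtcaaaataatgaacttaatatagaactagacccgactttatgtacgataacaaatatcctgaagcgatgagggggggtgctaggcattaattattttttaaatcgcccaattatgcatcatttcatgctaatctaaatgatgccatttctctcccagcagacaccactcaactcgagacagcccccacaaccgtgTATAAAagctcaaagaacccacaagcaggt
Krt79 promoter: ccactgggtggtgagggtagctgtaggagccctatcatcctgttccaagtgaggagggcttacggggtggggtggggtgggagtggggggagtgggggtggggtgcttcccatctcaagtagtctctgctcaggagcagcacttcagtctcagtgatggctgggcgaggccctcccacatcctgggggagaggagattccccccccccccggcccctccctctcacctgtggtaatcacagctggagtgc
Mgst1 promoter: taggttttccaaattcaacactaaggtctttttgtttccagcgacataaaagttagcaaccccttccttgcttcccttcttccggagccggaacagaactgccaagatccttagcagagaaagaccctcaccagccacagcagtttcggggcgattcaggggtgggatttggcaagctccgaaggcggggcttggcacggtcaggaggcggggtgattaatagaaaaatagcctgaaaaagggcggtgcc
Plet1 promoter: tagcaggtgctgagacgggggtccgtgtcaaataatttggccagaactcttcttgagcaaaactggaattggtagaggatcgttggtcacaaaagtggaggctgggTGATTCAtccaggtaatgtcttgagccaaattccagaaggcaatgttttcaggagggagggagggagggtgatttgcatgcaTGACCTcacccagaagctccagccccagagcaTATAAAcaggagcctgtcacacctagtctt
Krt28 and Plet1 each hold TATAAA at position -30 from the start, although their expression patterns differed. Plet1 also holds the palindromic AP-1 motif at -144, read on either strand, and the half-site at -62 on the opposite strand. Krt79 and the first Mgst1 site hold none of the 4 motifs. Of 32851 RefSeq promoters of this length, 12.4% hold TATAAA, 6.75% hold the AP-1 motif, 14.0% the nuclear receptor half-site and 9.99% the Gata motif. G and C made up 38.8% of the Krt28 window, 64.0% of that of Krt79 and 52.0% of that of Mgst1.

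Krt28 (ENSMUSG00000055937, chr11:99364872-99374903, minus strand, GRCm38) encodes a type I keratin of the inner root sheath. It had 2.75, 2.23 and 2.97 FPKM in aged libraries, 0.867, 1.05 and 1.36 in HFD libraries and 0.227, 0.332 and 0.533 in control libraries. The 3 groups did not overlap in any pair. The numbers of reads behind these values, recovered from the FPKM steps, were 148, 115 and 148 in aged libraries, 50, 46 and 57 in HFD libraries and 12, 13 and 27 in control libraries. The gene was thus rare in all groups, and its mean was 2.65 ± 0.382 FPKM in aged, 1.09 ± 0.249 in HFD and 0.364 ± 0.155 in control (SD, n = 3 each). The aged mean was 7.28 times the control mean and 2.43 times the HFD mean, which describes how the gene was picked.

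The comparison of HFD with control asked whether a high-fat diet at the same age moved the gene. The low control values took part in the choice of Krt28, and the gene passed the expression minimum only through aged libraries, so this comparison too is a description. The HFD mean was 3.0 times the control mean, and the difference of log2(FPKM + 1) was 0.62 ± 0.14. Krt28 was the 1 gene of the 6 whose HFD and control libraries did not overlap, as was the case for 40.4% of all tested genes (20.8% with HFD higher). Without HFD replicate 3, the highest of its group, the difference was 0.52.

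Some reads of Krt28 could belong to related keratins. Of its 1575 stretches of 50 transcript bases, 38 (2.41%) also occur in Krt25, 4 of them in Krt27 as well, and all lie in 1 coding run. The run covers bases 1088 to 1174 of the 1624-base transcript (GENCODE M21, GRCm38, chromosome 11). It is printed because it marks where a read cannot be given to Krt28 alone, with the 53 bases common to all 3 keratins in capitals.
Krt28, Krt25 and Krt27 shared run: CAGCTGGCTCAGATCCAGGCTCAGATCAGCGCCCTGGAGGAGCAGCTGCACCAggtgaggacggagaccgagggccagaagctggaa
The rest of the transcript has no such stretch in another gene.

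Krt27, another inner root sheath keratin, is the nearest listed gene on one side of Krt28, 13768 bases away on the same strand. Krt27 had 1.65, 0.812 and 1.14 FPKM in aged libraries, 0.363, 0.381 and 1.05 in HFD libraries and 0.0794, 0.0268 and 0.310 in control libraries. Aged and control did not overlap, whereas HFD replicate 3 lay within the aged range. These values rest on 179 reads in aged, 78 in HFD and 20 in control libraries. Krt27 averaged under 1 FPKM and was not in the fit used for calls. With no filter on low genes its difference in aged against control was 0.94 ± 0.19 (limma adjusted p = 0.0422). In the same fit it differed by 0.47 in HFD against control, without being called (limma adjusted p = 0.176). Krt10 lies 10351 bases away on the other side and is transcribed toward Krt28. Krt10 had 6493, 5478 and 4748 FPKM in aged libraries, 4785, 5167 and 3480 in HFD libraries and 3805, 4461 and 3328 in control libraries. It was not called in any comparison (lowest limma adjusted p = 0.0761, for aged against control). Whether reads running on from Krt10 reach Krt28 was not tested.

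**Figure D2:**
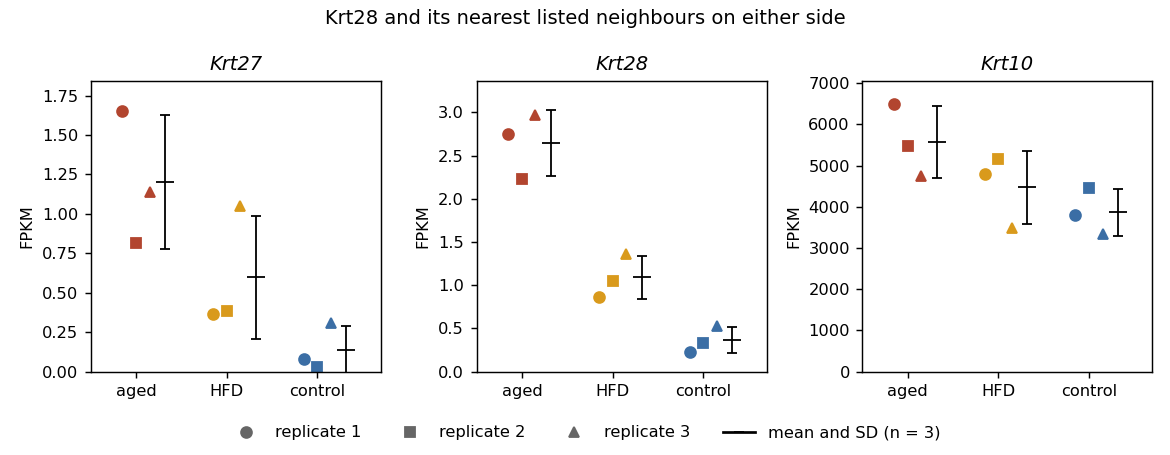
FPKM of Krt28 and of the nearest listed gene on each side, Krt27 and Krt10, by library and group, with the mean and SD of 3 libraries. Axes start at 0, where the control bar of Krt27 ends. Krt27 and Krt28 both have their highest means in aged and their lowest in control, at levels far below those of Krt10.

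The other keratins of the inner root sheath were close to absent. Krt25 had 70 reads over the aged libraries, 51 of them in replicate 1, with 6 reads in HFD and 2 in control. Krt71 had 36 reads in aged, 42 in HFD and 10 in control libraries. Krt73 had 15, 2 and 1 reads in the aged, HFD and control libraries, Krt72 had 1 read in all, and Krt26 was listed at 0 in every library. The 2 tested genes of the inner root sheath list were Gata3, a transcription factor also used in epidermis, and Tchh, the sheath structural protein trichohyalin. Gata3 averaged 27.7 ± 3.21 FPKM in aged, 23.8 ± 1.04 in HFD and 24.0 ± 0.624 in control, and Tchh 2.72 ± 0.513, 2.05 ± 0.274 and 2.29 ± 0.380. Neither was called in any comparison (lowest limma adjusted p = 0.155, for Gata3 in aged against HFD). Apart from Krt28, no keratin of the inner root sheath list averaged 1 FPKM over the 9 libraries.

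The hair shaft list had 17 of 18 genes in the table, of which 6, Krt33b, Krt34, Krt40, Krt81, Krt82 and Shh, were listed at 0 in every library. Its 3 tested genes, Krt32, Hoxc13 and Msx2, were not called in any comparison (lowest limma adjusted p = 0.0615, for Krt32 in HFD against control). The highest of them, Hoxc13, a homeobox factor of hair and nail, averaged 7.08 ± 0.542 FPKM in aged, 8.13 ± 1.2 in HFD and 7.24 ± 1.95 in control.

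Mgst1 (ENSMUSG00000008540, chr6:138140316-138156755, plus strand, GRCm38) encodes a membrane-bound glutathione transferase and is a marker of sebaceous cells. It had 43.0, 41.5 and 41.4 FPKM in aged libraries, 25.2, 24.8 and 23.5 in HFD libraries and 33.4, 25.6 and 22.6 in control libraries. The aged libraries were nearly equal and lay above all others, while HFD libraries lay within the control range. Means were 42.0 ± 0.891 FPKM in aged, 24.5 ± 0.895 in HFD and 27.2 ± 5.59 in control (SD, n = 3 each), so the aged mean was 1.54 times the control mean and 1.71 times the HFD mean. Each value rested on at least 1222 reads, far more than those of Krt28 and Cidea. The difference in HFD against control was -0.13 ± 0.11, and 0.0253 without control replicate 1, the highest of its group.

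Cidea (ENSMUSG00000024526, chr18:67343604-67367785, plus strand, GRCm38) encodes a lipid droplet protein of brown fat and sebaceous cells. It had 4.0, 2.6 and 2.14 FPKM in aged libraries, 0.328, 0.331 and 0.417 in HFD libraries and 2.23, 1.19 and 0.316 in control libraries. Aged libraries lay above all HFD libraries, but control replicate 1 lay above aged replicate 3. The control libraries differed among themselves by 7.07-fold, with 81, 32 and 11 reads, against 148, 92 and 73 reads in aged and 13, 10 and 12 in HFD libraries. Means were 2.91 ± 0.974 FPKM in aged, 0.359 ± 0.0503 in HFD and 1.25 ± 0.960 in control (SD, n = 3 each). Like Krt28, the gene passed the expression minimum only through aged libraries. In HFD against control the difference was -0.63 ± 0.27. It was -0.97 without control replicate 3, which was as low as the HFD libraries, and -0.32 without control replicate 1.

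Genes of fat cells were near 0. None of the 10 fat cell genes listed reached the expression minimum, and their highest single value was 0.484 FPKM, for Lpl. Their summed level was 0.541 to 0.592 FPKM in aged, 0.338 to 0.588 in HFD and 0.306 to 0.684 in control libraries. Retn, Cfd and Ucp1, the uncoupling protein of brown fat, were listed at 0 in every library.

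Apart from Mgst1 and Cidea, the sebaceous list held 26 genes, of which 12 were tested. In aged against HFD 4 (33.3%) were higher and 0 lower, against 3.54% and 4.45% of all tested genes. In aged against control 0 were higher and 2 (16.7%) lower, against 4.01% and 3.74%. In HFD against control 1 (8.33%) was higher and 3 (25.0%) lower, against 8.26% and 8.76%. The medians of the differences of the 12 genes were, in the same order, 0.29, 0.20 and -0.34, against -0.003, -0.006 and 0.009 over all tested genes. At an unadjusted p under 0.05 the counts higher and lower by limma were 7 and 0, 5 and 3, and 1 and 4. The share of all tested genes at that level is not given here, so no excess can be read from these counts. Without control replicate 1, Scd1, Elovl6 and Plin2 were called higher in aged against control (limma adjusted p = 0.0143, 0.0109 and 0.0346), and so they were with the replicate number as a block (0.0215, 0.0155 and 0.0122). The 4 genes that rose in aged against HFD make or modify lipids. Scd1, a fatty acid desaturase, averaged 56.2 ± 3.36 FPKM in aged, 34.1 ± 5.21 in HFD and 40.3 ± 9.22 in control, and rose by 0.71 ± 0.14 in aged against HFD (limma adjusted p = 0.0128). Fa2h, which hydroxylates fatty acids, rose by 1.05 ± 0.25 and Elovl6, an elongase, by 0.90 ± 0.22 (limma adjusted p = 0.0255 and 0.0305). Dgat2, which completes triglycerides, rose by 0.49 ± 0.12 (limma adjusted p = 0.0266). Each of the 4 calls was lost when HFD replicate 3 was left out, with adjusted p between 0.0534 and 0.108. Scd1 was also lost without HFD replicate 2 (0.0534), Fa2h without HFD replicate 1 or aged replicates 2 or 3 (0.0533 to 0.0696), Elovl6 without HFD replicate 2 or aged replicates 1 or 3 (0.0555 to 0.101), and Dgat2 without HFD replicate 1 or aged replicates 1 or 3 (0.0642 to 0.0899).

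Elovl5, an elongase of polyunsaturated fatty acids, fell by 0.54 ± 0.14 in aged and by 0.60 ± 0.14 in HFD against control (limma adjusted p = 0.0368 and 0.0157). Fasn, the fatty acid synthase, fell by 0.45 ± 0.10 in HFD against control, and Plin2, a coat protein of lipid droplets, rose by 0.45 ± 0.11 there (limma adjusted p = 0.0124 and 0.0171). Each of these calls was lost on leaving out at least 1 library. Fasn was lost without control replicate 2 (0.0539) and Plin2 without control replicate 2 (0.0616) or HFD replicate 1 (0.0622). Elovl5 in HFD was lost without control replicate 2, HFD replicate 1 or HFD replicate 3 (0.0555 to 0.0574), and in aged without control replicates 1 or 2 or any aged replicate (0.0563 to 0.114). Genes more restricted to sebaceous cells were rarer. Awat1, a wax synthase, had 0.282, 0.0226 and 0.258 FPKM in aged libraries and 0, 0.159 and 0 in HFD libraries, and was listed at 0 in control libraries. It had 25 reads in aged and 6 in HFD libraries, whereas Awat2 had 102 in aged, 114 in HFD and 112 in control libraries. With no filter neither was called (lowest limma adjusted p = 0.18, for Awat1 in aged against control). Mc5r, the melanocortin receptor of the gland, did not exceed 0.362 FPKM, and Pparg, the lipid cell factor, had 2.56 FPKM in aged replicate 1 and 0.287 to 1.10 in the other libraries. The summed level of the 26 genes was 193 to 207 FPKM in aged, 132 to 155 in HFD and 148 to 195 in control libraries.

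Krt79 (ENSMUSG00000061397, chr15:101929332-101940324, minus strand, GRCm38) encodes a keratin of the upper follicle and the hair canal. It had 121, 86.8 and 94.4 FPKM in aged libraries, 40.0, 41.1 and 23.0 in HFD libraries and 54.1, 65.9 and 20.2 in control libraries. Every aged library lay above every HFD library, as for 13.9% of all tested genes (29.8% did not overlap in either direction), and above every control library, and replicate 3 was the lowest in both HFD and control. Each value rested on 2820 to 19031 reads. Means were 101 ± 17.8 FPKM in aged, 34.7 ± 10.1 in HFD and 46.7 ± 23.7 in control (SD, n = 3 each).

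Krt79 rose in aged against HFD by 1.54 ± 0.35 (95% interval 0.77 to 2.32, limma adjusted p = 0.0237), a comparison in which 7.99% of all tested genes were called and 3.54% were called higher. That call ended without HFD replicate 3 (difference 1.28, adjusted p = 0.0873) and without aged replicate 1 (1.41, 0.0801). In aged against control the difference was 1.24 ± 0.35 (95% interval 0.46 to 2.01), and it was not called (limma adjusted p = 0.0567). Without control replicate 2, the highest control library, it was 1.56 with an adjusted p of 0.0440. In HFD against control the difference was -0.31 ± 0.35 (95% interval -1.08 to 0.47, limma adjusted p = 0.580), and -0.81 with an adjusted p of 0.0445 without control replicate 3. Control replicate 3 alone thus decided that call, and the SE of Krt79 was the largest of the 6 genes in every comparison.

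**Figure D3:**
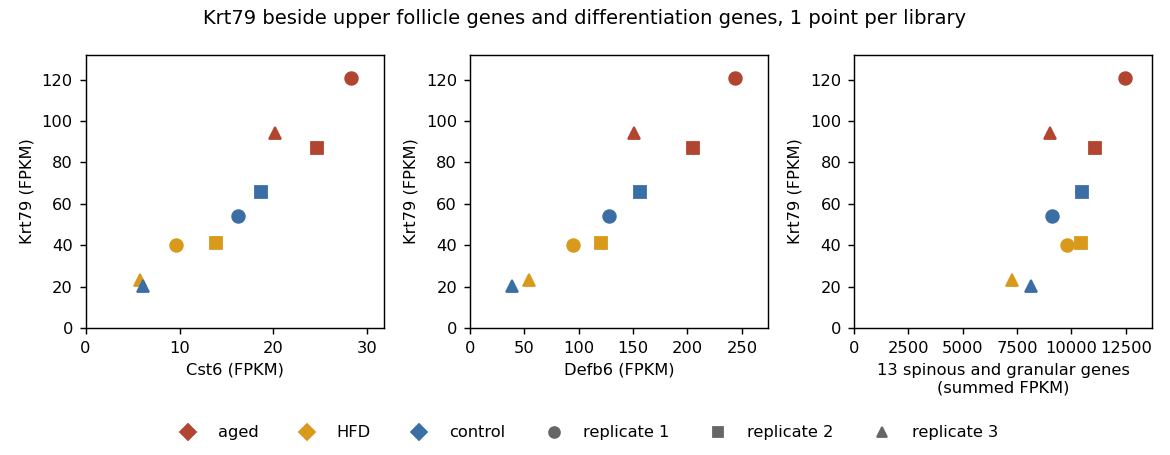
Krt79 in FPKM against Cst6, Defb6 and the summed FPKM of 13 spinous and granular genes, with a point per library, colours for groups and shapes for replicate numbers. Replicate 3 of HFD and of control lies at the lower left of every panel, and the aged libraries lie at the top of each.

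The genes most like Krt79 over the 9 libraries, by Pearson correlation of log2(FPKM + 1), were Cst6 (0.973), Guf1 (0.962), Defb6 (0.960), Sdr16c6 (0.956) and Cyp2b19 (0.955). Points of such a correlation share their groups and libraries, and the values are a description. Cst6, a cystatin protease inhibitor of the upper follicle and the cornifying layers, had 28.3, 24.7 and 20.1 FPKM in aged libraries, 9.67, 13.9 and 5.82 in HFD libraries and 16.2, 18.6 and 6.16 in control libraries. It was lowest in replicate 3 of every group. Cst6 rose by 1.29 ± 0.35 in aged against HFD (limma adjusted p = 0.0439), a call lost without HFD replicates 1 or 3 or any aged replicate (0.0562 to 0.149). In aged against control Cst6 was called only with the replicate number as a block, with or without the GC correction (0.90 and adjusted p = 0.0142 without it). Defb6, a beta-defensin, averaged 200 ± 46.7 FPKM in aged, 89.9 ± 33.6 in HFD and 108 ± 61.3 in control and was not called (lowest limma adjusted p = 0.119, for aged against HFD). The summed level of 13 spinous and granular genes was 9032 to 12452 FPKM in aged, 7279 to 10444 in HFD and 8145 to 10509 in control libraries. It was likewise lowest in replicate 3 of each group, and its part in the values of Krt79 was not tested.

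Plet1 (ENSMUSG00000032068, chr9:50494525-50505482, plus strand, GRCm38) encodes a surface protein of the junctional zone, where the upper follicle meets the gland. It had 28.6, 31.6 and 29.4 FPKM in aged libraries, 27.7, 28.8 and 22.8 in HFD libraries and 27.5, 26.6 and 25.5 in control libraries. Aged libraries lay just above all control libraries and overlapped HFD libraries. Differences were 0.16 ± 0.09 in aged against control (95% interval -0.03 to 0.36), 0.17 ± 0.09 in aged against HFD (-0.02 to 0.37) and -0.01 ± 0.09 in HFD against control (-0.20 to 0.18). None was called (limma adjusted p = 0.268, 0.252 and 0.941). An antisense gene, Plet1os, covers 261 bases (13.4%) of the Plet1 exons. Strand use in counting is not given in the sources used here, so its reads cannot be told apart from those of Plet1.

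Of the 10 other genes on the upper follicle and junctional zone list, 8 were tested. In aged against HFD 1 (12.5%) was higher and 2 (25.0%) lower, against 3.54% and 4.45% of all tested genes. In aged against control 0 were higher and 2 (25.0%) lower, against 4.01% and 3.74%. In HFD against control 1 (12.5%) was higher and 1 (12.5%) lower, against 8.26% and 8.76%. The 1 that rose in aged against HFD was Cst6. Aqp3, a water and glycerol channel of the basal epidermis and the highest gene of the list, averaged 590 ± 54.4 FPKM in aged, 760 ± 48.3 in HFD and 755 ± 33.8 in control. It fell in aged by 0.36 ± 0.09 against control and by 0.37 ± 0.09 against HFD (limma adjusted p = 0.0308 and 0.0261). Lgr6, a Wnt pathway receptor of follicle and epidermal stem cells, fell by 0.52 ± 0.13 in aged and by 0.45 ± 0.13 in HFD, each against control (limma adjusted p = 0.0314 and 0.0336). Klk10, a secreted kallikrein protease, rose by 0.42 ± 0.10 in HFD against control and fell by 0.42 ± 0.10 in aged against HFD (limma adjusted p = 0.0170 and 0.0270). Each of these calls ended when single libraries were left out. Aqp3 was lost without aged replicate 1 in both (0.0989 and 0.0780), without control replicates 2 or 3 against control (0.0909 and 0.0951), and without HFD replicates 2 or 3 or aged replicate 3 against HFD (0.0510 to 0.111). Lgr6 was lost in aged without control replicates 1 or 3 or aged replicates 2 or 3 (0.0561 to 0.111), and in HFD without control replicates 1 or 3 or any HFD replicate (0.0555 to 0.109). Klk10 was lost in HFD without control replicate 2 or HFD replicates 2 or 3 (0.0544 to 0.0598), and in aged without HFD replicates 2 or 3 or any aged replicate (0.0557 to 0.0969). At an unadjusted p under 0.05 the counts higher and lower by limma were 3 and 2 in aged against HFD, 2 and 2 in aged against control, and 2 and 1 in HFD against control. No share of all tested genes stands beside these counts. The genes of this list thus moved in both directions.

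Sox9 (ENSMUSG00000000567, chr11:112782224-112787760, plus strand, GRCm38) encodes a transcription factor that the outer root sheath and follicle stem cells need. It had 10.4, 12.3 and 12.7 FPKM in aged libraries, 10.2, 9.08 and 8.71 in HFD libraries and 8.97, 7.58 and 5.39 in control libraries. Aged libraries lay above all HFD and control libraries, and HFD and control overlapped. Means were 11.8 ± 1.24 FPKM in aged, 9.34 ± 0.802 in HFD and 7.32 ± 1.80 in control (SD, n = 3 each), from 696 to 1611 reads.

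Sox9 rose in aged against control by 0.64 ± 0.14 (95% interval 0.33 to 0.95, limma adjusted p = 0.0226). It was the 1 gene called of the 3 that were not picked on aged values, in a comparison where 7.76% of all tested genes were called and 4.01% were called higher. The call was lost without control replicate 2 (difference 0.67, adjusted p = 0.0562), control replicate 3 (0.46, 0.0555) or aged replicate 2 (0.61, 0.0710). The difference was 0.30 ± 0.14 in aged against HFD (95% interval -0.01 to 0.61, limma adjusted p = 0.218) and 0.34 ± 0.14 in HFD against control (0.02 to 0.65, adjusted p = 0.120), and neither was called. Without control replicate 1 the HFD difference was 0.48 with an adjusted p of 0.0420. The aged libraries of all 3 genes not picked for it lay above the control libraries without overlap, as did those of 13.7% of all tested genes, while 27.8% did not overlap in either direction.

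Of the 13 other genes on the outer root sheath and bulge list, 10 were tested. Limma called 2 higher in aged against HFD, 1 higher in aged against control and 0 in HFD against control, and 0 lower in any. Of all tested genes, 3.54% were called higher and 4.45% lower in aged against HFD. These shares were 4.01% and 3.74% in aged against control, and 8.26% and 8.76% in HFD against control. At an unadjusted p under 0.05 the counts higher and lower were 3 and 0, 3 and 0, and 2 and 2 in the same order of comparisons. They too have no share of all tested genes beside them. Barx2, a homeobox factor, had 94.8, 88.6 and 112 FPKM in aged libraries, 89.9, 86.4 and 81.8 in HFD libraries and 75.2, 62.7 and 74.2 in control libraries. It rose by 0.47 ± 0.10 in aged against control (limma adjusted p = 0.0174), a call lost without control replicate 2 (0.0642). In HFD against control its difference was 0.28 and not called, but it was called without aged replicate 3 (limma adjusted p = 0.0305), with only the compared libraries (0.0401), with the block (0.0439) and with the GC correction (0.0165). Ccn2, a matricellular protein also known as Ctgf, rose by 0.85 ± 0.21 and Foxc1, a forkhead factor of quiescent stem cells, by 0.61 ± 0.17 in aged against HFD (limma adjusted p = 0.0336 and 0.0469). Ccn2 was lost without any HFD replicate or aged replicates 2 or 3 (0.0509 to 0.105), and Foxc1 without any HFD or aged replicate or control replicate 2 (0.0593 to 0.148). Foxc1 was called higher in aged against control without control replicate 1 (0.62, limma adjusted p = 0.0219). Krt17, the highest gene of the list and a keratin of the outer sheath, averaged 201 ± 20.7 FPKM in aged, 193 ± 34.8 in HFD and 199 ± 32.9 in control and was not called. Under the expression minimum, Lgr5 had 387 reads in aged, 253 in HFD and 134 in control libraries. Cd34 had 39, 19 and 1 reads in the same order, and Krt75 had 24, 29 and 31. With no filter none of them was called (lowest limma adjusted p = 0.0523, for Cd34 in aged against control).

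Over the 5 follicle and sebaceous lists without the 6 genes, 35 of 75 genes in the table were tested. In aged against HFD 7 (20.0%) were higher and 2 (5.71%) lower, against 3.54% and 4.45% of all tested genes, and their median difference was 0.21. Leaving out HFD replicate 3 brought the 9 calls to 0, and leaving out aged replicate 3 to 1. They came to 4 without HFD replicate 1, HFD replicate 2 or aged replicate 1, and to 5 without aged replicate 2. In aged against control 1 (2.86%) was higher and 4 (11.4%) lower, against 4.01% and 3.74% of all tested genes, with a median of 0.15. At an unadjusted p under 0.05, for which no share of all tested genes is given, 12 were higher and 6 lower. Of the 35 differences, 24 were above 0. The balance of calls turned with the setting. It was 5 higher and 2 lower without control replicate 1, 6 and 5 with the replicate number as a block, 7 and 5 with the GC correction and the block, and 2 and 1 with no filter. The 5 calls came to 2 without control replicate 2 and to 3 without control replicate 3 or any aged replicate. In HFD against control 2 (5.71%) were higher and 4 (11.4%) lower, against 8.26% and 8.76% of all tested genes, with a median of -0.14. The 6 calls came to 2 without control replicate 2, to 3 without HFD replicates 1 or 3 and to 9 without aged replicate 3, while the GC correction gave 4 higher and 3 lower. Calls thus went in both directions in each comparison, and in bulk samples fewer cells of a type cannot be told apart from less RNA per cell.

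**Figure D4:**
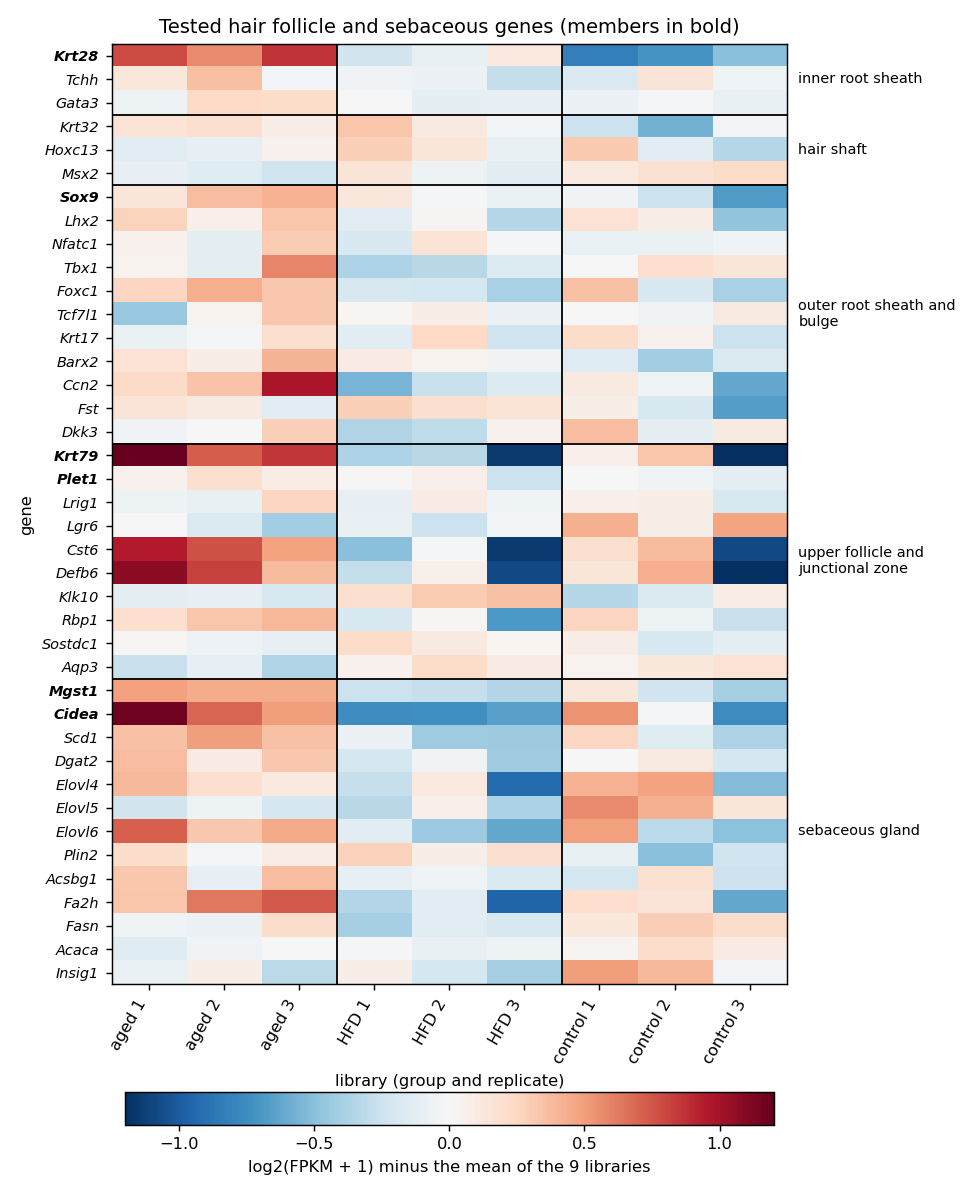
Tested genes of the 5 lists, except 1 sebaceous gene, in each library, as log2(FPKM + 1) minus the mean of the 9 libraries, with the 6 genes in bold and the colour scale ending at 1.2 in either direction. Rows such as Krt28, Krt79, Cst6 and Cidea are red in aged libraries, whereas most rows of every list show small deviations.

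As a description of the genes picked on aged values, the difference in aged against control was 1.42 ± 0.14 for Krt28, 0.62 ± 0.11 for Mgst1 and 0.87 ± 0.27 for Cidea. Against HFD, the aged difference was 0.81 ± 0.14, 0.75 ± 0.11 and 1.50 ± 0.27 for the same genes. Aged and HFD libraries did not overlap for 5 of the 6 genes, Plet1 being the exception, against 29.8% of all tested genes. Aged and control libraries did not overlap for 5 as well, Cidea being the exception, against 27.8%. Without the picked genes, these counts were 2 and 3 of 3. Of the same 3 genes limma called 0 in HFD against control, where 17.0% of all tested genes were called, and 1, Sox9, had an unadjusted p under 0.05.

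**Figure D5:**
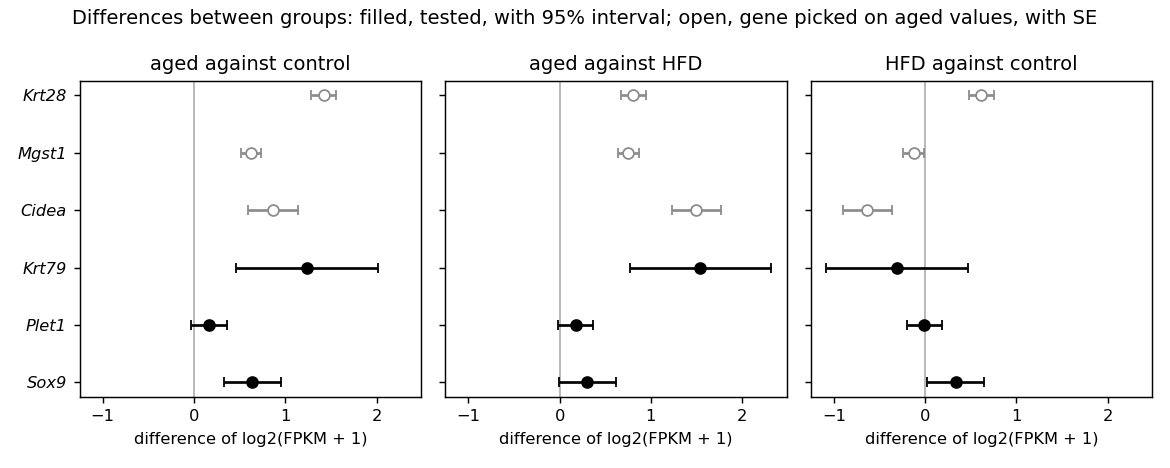
Differences of log2(FPKM + 1) for the 6 genes in the 3 comparisons. Filled points are tested, with 95% intervals, and open points are genes picked on aged values, with the SE and no test. The tested intervals of Krt79 and Sox9 in aged against control lie above 0, as does that of Krt79 in aged against HFD.

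The likeness of the 6 genes over the libraries differed by pair. Pearson correlation of log2(FPKM + 1) over 9 libraries was 0.935 between Mgst1 and Cidea, 0.888 between Mgst1 and Krt79 and 0.883 between Cidea and Krt79. Krt28 had 0.718 to Sox9, 0.690 to Mgst1, 0.555 to Krt79, 0.488 to Cidea and 0.426 to Plet1. Low values also occurred without Krt28, with 0.554 between Sox9 and Cidea and 0.566 between Plet1 and Cidea. Some pairs shifted with Spearman's correlation, which was 0.467 between Krt28 and Mgst1. Between Plet1 and Sox9 it was 0.883, against 0.647 by Pearson. Within control, replicate 3 was the lowest library for Mgst1, Cidea, Krt79, Plet1 and Sox9 and the highest for Krt28. The order among HFD libraries was similar, with replicate 3 the lowest for Mgst1, Krt79, Plet1 and Sox9 and the highest for Krt28 and Cidea.

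Genes of widely differing function had patterns like those of the 6. Those most like Krt28 were Axl, a receptor tyrosine kinase (0.970), C1ra, a complement protease (0.968), Cntln (0.966), Ctsh, a lysosomal protease (0.964), and Fam172a (0.959). Ctsh averaged 16.6 ± 1.57 FPKM in aged, 9.46 ± 0.123 in HFD and 7.36 ± 0.562 in control, the same order of groups as Krt28. Those most like Mgst1 were Dglucy (0.966), Gsta3, another glutathione transferase (0.963), Emb (0.954), Csnk1e (0.952) and Scd1 (0.949). Ranked by Spearman's correlation with Mgst1 instead, these stood at 82, 175, 33, 241 and 50, so the choice of genes depended on the measure. Gsta3 averaged 3.41 ± 0.0708 FPKM in aged, 1.05 ± 0.281 in HFD and 1.18 ± 0.276 in control. Those most like Cidea were Tmprss4 (0.974), Pthlh (0.962), Bcl2 (0.962), B3gntl1 (0.956) and Acsl4 (0.953), those most like Sox9 were Zfp251 (0.969), Inhbb (0.956), Ccpg1os (0.917), Mfsd13a (0.913) and Lratd1 (0.904), and those most like Plet1 were Zmym6 (0.928), Fndc9 (0.914), Fam25c (0.907), Ndrg2 (0.904) and Hspb6 (0.903).

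Markers of other cell types were summed in the same libraries, and some of the sums moved with the groups. Merkel cell genes summed to 0.640 to 1.27 FPKM in aged, 0.639 to 1.15 in HFD and 0.113 to 0.280 in control libraries, with Krt20 listed at 0. In aged and HFD libraries nearly all of it came from Isl1. In control replicate 1, which had the highest control sum, Isl1 and Sox2 had 12 reads each. The sums were lowest in control, as was Krt28, and no gene of that list reached the minimum. With no filter Isl1 rose against control by 0.79 in aged and by 0.69 in HFD (limma adjusted p = 0.0247 and 0.0239). In aged, HFD and control libraries Isl1 had 354, 277 and 39 reads. Sox2 had 0, 0 and 12 in the same order, Atoh1 2, 0 and 0 and Piezo2 1, 15 and 4. Langerhans cell genes summed to 47.4 to 51.8 FPKM in aged, 46.4 to 57.2 in HFD and 31.5 to 42.5 in control libraries, mostly from Epcam. Against control, Epcam rose by 0.55 in aged and 0.64 in HFD (limma adjusted p = 0.00459 and 0.00166). H2-Ab1 differed there by -0.39 and -0.37, Cd74 by -0.31 and -0.45 and H2-Eb1 by 0.50 and 0.15, none of them called. T cell genes summed to 26.0 to 33.9 FPKM in aged, 32 to 38.4 in HFD and 46.2 to 53.4 in control libraries, mostly from Thy1. Thy1 was the 1 tested gene of that list. Cd3e had 0, 1 and 4 reads in aged, HFD and control libraries, Cd3g 0, 3 and 6, and Trac 30, 34 and 24. Basal keratinocyte genes summed to 23968 to 25069 FPKM in aged, 27192 to 31907 in HFD and 24091 to 30876 in control libraries. The part of these lists in the values of the 6 genes was not tested.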

How the data were processed

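RNA-seq of 9 libraries was deposited as a table of FPKM with 22399 rows. Tools named in the submitters' processing notes are STAR 2.6.0c, cutadapt, DESeq2 1.30.0 and HTSeq 0.11.2, with the mm10 build, and how the authors made the FPKM from counts is not given in the sources used here. Whole reads were recovered from the FPKM steps and the merged exon lengths of GENCODE M21 on GRCm38, with 97.5% to 98.2% of low values whole within 0.02. The table held 0 columns of other samples.

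Tests used limma 3.58.1 (R 4.3.3) on log2(FPKM + 1) values (two-sided, eBayes with a trend, a mean per group, all 9 libraries), for genes averaging at least 1 FPKM. The fit was tested on simulated data. Depth was 23.5 to 35.8 M reads per library. Krt28 and Cidea rested on 10 to 148 reads per library, and Cidea also differed 7.07-fold between control libraries. Krt28, Mgst1 and Cidea, picked on aged values, are given without a test in all comparisons, although HFD against control had been planned as a test of all 6.

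The 6 genes, the marker lists and the settings were chosen with earlier results of these data known. Lists covered the inner root sheath, hair shaft, outer root sheath and bulge, upper follicle and junctional zone, sebaceous gland, sweat gland, fat cells, basal, spinous and granular keratinocytes, plantar keratins, melanocytes, Merkel, Langerhans and T cells, fibroblasts, endothelial and mural cells, muscle, erythroid cells and sex-linked genes. Named genes were the 6, up to 6 called genes of each of the first 7 lists in each comparison and the highest 2, the 5 genes most correlated with each of the 6, the nearest listed neighbours, and the highest gene of each other list. A sebaceous list gene is counted in the list but not reported here by name. Neighbours without a result beside a named value are not printed. Alternatives were another pseudocount, other filters, quantile and total scaling, limma's robust setting, only the compared libraries, a replicate block, a GC correction and leaving out each library. Pearson correlations were set beside Spearman's. Library pairs with the same replicate number had correlations of -0.052 to 0.274 in their deviations, and 5 of 9 passed 0.1. Pairs with different numbers had -0.286 to 0.218. These values do not settle whether the numbers pair samples. The main fit left the numbers out, and the block was an alternative. That choice decided some calls, such as Krt79 in aged against control (limma adjusted p = 0.0567, and 0.0121 with the block).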

Additional observations from a re-analysis of the deposited data

How the results depend on the processing

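No called difference of a named gene changed sign under any alternative, while the uncalled differences of Krt79 and Plet1 and the untested one of Mgst1 (-0.25 to 0.0253) in HFD against control crossed 0 when single libraries were left out. Other list genes were followed if the main fit called them in at least 1 comparison. Of their values over all comparisons and alternatives, 997 kept their side of the threshold, 18 gained a call and 108 lost one. The 997 can include uncalled differences that changed sign. Called genes in HFD against control were 1161 with the GC correction and 749 to 2116 when single libraries were left out (749 without control replicate 2, 875, 901 and 1012 without HFD replicates 1, 2 and 3). In aged against control they were 468 with only the 6 libraries compared and 303 to 1253 with single libraries left out (321 and 318 without control replicates 2 and 3, 303, 389 and 1253 without aged replicates 1, 2 and 3). In aged against HFD they were 541 with no filter and 380 to 779 with single libraries left out (474, 380 and 389 without HFD replicates 1, 2 and 3, and 447 without aged replicate 1). Calls among the 5 follicle and sebaceous lists were 10 in HFD against control with the replicate block, 10 with the GC correction and the block, and 2 to 9 with single libraries left out. In aged against control they were 3 with no filter, 11 with the replicate block, 12 with the GC correction and the block, 3 with only the 6 libraries compared, and 2 to 7 with single libraries left out. In aged against HFD limma called 0 with no filter, against 7 higher and 2 lower in the main fit, and 0 to 10 with single libraries left out. At an unadjusted p under 0.05, for which no share of all tested genes is given, the main fit had 14 higher and 2 lower.

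A pseudocount of 0.1 gave Krt28 2.61 in aged against control, 1.22 in aged against HFD and 1.39 in HFD against control, and Cidea 1.43, 2.67 and -1.24. Krt79 in aged against control was called with the replicate block (1.24, adjusted p = 0.0121) and with the GC correction and the block (1.23, 0.0166). Its call in aged against HFD was lost with no filter (1.54, 0.0904) and with the robust setting (1.54, 0.0915). Sox9 in aged against control was lost with no filter (0.64, 0.0697). With single libraries left out, differences in HFD against control spanned 0.52 to 0.70 for Krt28, -0.97 to -0.32 for Cidea, -0.81 to 0.0157 for Krt79 and 0.16 to 0.48 for Sox9. In aged against control they spanned 0.73 to 1.56 for Krt79 and 0.46 to 0.78 for Sox9, and in aged against HFD 1.28 to 1.68 for Krt79. The block changed no other call of the 6 genes. A minimum of 5 FPKM left no value for Krt28 and Cidea. Causes were not tested. Krt28, Krt27 and Cidea rest on few reads.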

Other observations

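Sweat glands are the appendages that footpad skin does carry, and 5 of the 16 genes on the sweat gland list were tested. Car2, a carbonic anhydrase, had 9.07, 8.64 and 11.6 FPKM in aged libraries, 7.37, 8.20 and 7.62 in HFD libraries and 4.38, 2.02 and 2.33 in control libraries. Neither aged nor HFD libraries overlapped control libraries. Car2 rose by 1.50 ± 0.18 in aged and by 1.21 ± 0.18 in HFD, each against control (limma adjusted p = 0.00128 and 0.00245). Slc12a2, the chloride cotransporter of secretory cells, rose by 0.31 ± 0.07 in aged and by 0.45 ± 0.07 in HFD (limma adjusted p = 0.0197 and 0.00236). Its aged call was lost without control replicates 2 or 3 or aged replicate 1 (0.0611 to 0.0695).

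Ehf, an epithelial transcription factor, and Acta2, an actin of contractile cells such as those around the gland, were higher in HFD than in aged or control. Ehf had 7.96, 11.1 and 8.99 FPKM in HFD libraries and 3.03, 2.63 and 1.80 in control libraries, and rose by 1.57 ± 0.23 (limma adjusted p = 0.00236). Acta2 rose by 1.11 ± 0.20 in HFD against control (limma adjusted p = 0.00562). Myh11, on the same list, did not share that order, with 0 reads in aged, 6 in HFD and 18 in control libraries. Ehf and Acta2 were also compared between aged and HFD, where Ehf fell by 1.58 ± 0.23 and Acta2 by 1.50 ± 0.20 (limma adjusted p = 0.00315 and 0.00233). Krt77, a keratin of the sweat duct, rose by 1.12 ± 0.26 in aged against HFD and by 0.94 ± 0.26 in aged against control (limma adjusted p = 0.0237 and 0.0480). Those calls were lost without aged replicate 1 (0.0744 and 0.158), and also without HFD replicates 1 or 3 in the first (0.0590 and 0.0865) and without any control replicate or HFD replicate 1 in the second (0.0636 to 0.158). The defining gland genes Foxa1, Foxi1 and Cftr were listed at 0 in every library, and Krt8, Krt18 and Krt19 stayed under 1 FPKM. The 16 genes summed to 41.2 to 45.2 FPKM in aged, 51.0 to 61.4 in HFD and 29.7 to 34.0 in control libraries.

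Plantar keratins summed to 148 to 163 FPKM in aged, 235 to 434 in HFD and 170 to 226 in control libraries, led by Krt6a, which averaged 91.4 FPKM in aged, 250 in HFD and 119 in control. Krt6a rose by 1.02 in HFD against control (limma adjusted p = 0.00627). Differences there were 0.60 for Krt6b, 0.59 for Krt16, 0.43 for Krt78, -0.15 for Krt80 and -0.57 for Krt9, none of them called. Fibroblast genes summed to 10.1 to 11.1 FPKM in aged, 10.1 to 11 in HFD and 11.1 to 15.4 in control libraries, led by Fbln1. Muscle genes summed to 3.07 to 5.27 FPKM in aged, 3.80 to 4.62 in HFD and 2.40 to 5.95 in control libraries, led by Mylpf. Melanocyte genes summed to 0.892 to 1.31, 0.744 to 1.35 and 1.02 to 1.12 FPKM in aged, HFD and control libraries, led by Mitf. Endothelial and mural genes, led by Pecam1, stayed under 0.339 FPKM in sum, and erythroid genes, led by Hbb-bs, under 0.691. Of the sex-linked list 4 genes were in the table, led by Eif2s3y, and limma called 0 in any comparison, with 2 higher in aged against control and 1 in aged against HFD at an unadjusted p under 0.05.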
